A study of Mus musculus with 30 samples.

Results

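A set of 2611 distal chromatin regions carried H3K27ac in wild-type B cells, lost it in Crebbp-null lymphoproliferative disease (LPD), and carried neither H3K18ac nor H3K56ac in any list of the comparison. They are called lone-lost regions here. The acetylation peaks of 12 lists were merged where they overlapped or touched, which gave 50044 regions. A region was counted as lone-lost where an H3K27ac peak lay in both B cell lists and in neither LPD list, where none of the 8 H3K18ac and H3K56ac lists had a peak, and where it lay more than 1 kb from every end of a protein-coding gene. Lone-lost regions made up 5.22% of all merged regions and 19.6% of the 13294 distal regions with H3K27ac in both B cell lists. Their number depends on requiring both B cell lists: it was 4631 without B cell H3K27ac list 1 and 4834 without list 2. They were thus chosen by measured values, the presence of 3 marks in these 12 lists, and those values are given as a description with no test.

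The study compared mice that lack Crebbp with wild-type mice by chromatin immunoprecipitation and sequencing of histone acetylation and of CBP. The Crebbp-null groups carried the genotype Crebbp-/- (CBPfl/fl:Mx-Cre+) and the wild-type groups CBPfl/fl:Mx-Cre-, both on C57BL/6, so the floxed alleles were shared and Mx-Cre was the difference. Mx-Cre is driven by an interferon-inducible promoter and is active in many cell types, so the deletion is not limited to B cells. Crebbp-null LPD was taken as bulk splenocytes and wild-type B cells as B220+ splenocytes sorted by flow cytometry, with 2 lists per mark in each group. Crebbp-null and wild-type lymphoid progenitors, sorted as Lin- IL7Ra+ cells from lineage-depleted bone marrow, had 1 H3K27ac list each, and wild-type B cells also had 1 CBP list. Ages were not used here, and nothing in the labels says whether the replicates came from separate animals, so the spread between lists may be technical. Genotype, disease state and the sort all set LPD apart from B cells, and their parts cannot be told apart. In bulk chromatin, fewer cells with a mark and less of the mark per cell cannot be told apart either.

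CBP, the product of Crebbp, is a coactivator with acetyltransferase activity that is recruited to enhancers by DNA-binding factors and, with its paralogue p300, acetylates H3K27 and H3K18. H3K27ac marks active enhancers and promoters, and in B cells distal H3K27ac is found around genes of B cell identity and receptor signalling. H3K56 lies in the globular domain of histone H3, and its acetylation has also been linked to CBP and p300.

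The lists differed in size, and this touches every count below. The LPD lists held 27581 to 31924 H3K27ac peaks, against 30198 to 30523 in B cells. For H3K18ac the LPD lists held 35247 to 39529 peaks and the B cell lists 22485 to 23456. For H3K56ac there were 28222 to 28934 peaks in LPD and 18763 to 20392 in B cells. The lists give positions with no score and no read depth. H3K27ac peaks lay at 6 of 6 B cell marker genes in both LPD lists, with 30.7 to 44.1 kb summed, and in both B cell lists, with 35.6 to 36.7 kb. Of 6 erythroid and megakaryocyte markers, the LPD lists had a peak at 4 and 2 genes (1.23 to 3.49 kb) and the B cell lists at 1 (0.742 to 0.797 kb), with Gata1 and Pf4 at 0 in all 4 lists. Of 6 T and NK cell markers, the LPD lists had peaks at 2 (1.26 to 1.45 kb) and the B cell lists at 1 (2.17 kb), with Cd3e and Cd8a at 0 in all 4. Of 6 myeloid markers, 1 LPD list had a peak at Itgam (0.251 kb), and the other LPD list and both B cell lists had none. The part of these other cells in the loss was not tested.

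Sequence was held only for the stretch upstream of annotated starts and for microRNAs, so it could be shown for the few lone-lost regions that contain one. Of 32536 distinct windows of 250 bases upstream of a RefSeq start (GRCm38.p6, the assembly of mm10), 14 lay wholly inside a lone-lost region. The 5 below are shown because they are the letters of lone-lost chromatin itself: 3 from the widest such regions whose window holds the RUNX core TGTGGT on either strand, and 2 at starts of named protein-coding genes whose window does not. Capitals mark TGTGGT or its reverse complement ACCACA. The Gm36459 window (chr9:64814729-64814978, minus strand) lay in a region assigned to Dennd4a that covered 1851 and 1593 bp in B cell lists 1 and 2. The Blvrb window (chr7:27452168-27452417, plus strand) lay in a region of 1390 and 1388 bp, and the Gm19585 window (chr17:52149039-52149288, plus strand) in one of 1170 and 1391 bp with no assigned gene. The Hsd11b1 window (chr1:193242361-193242610, minus strand) lay in a region of 338 and 1121 bp, and the Bcl9 window (chr3:97227365-97227614, minus strand) in one of 415 and 429 bp.
Gm36459: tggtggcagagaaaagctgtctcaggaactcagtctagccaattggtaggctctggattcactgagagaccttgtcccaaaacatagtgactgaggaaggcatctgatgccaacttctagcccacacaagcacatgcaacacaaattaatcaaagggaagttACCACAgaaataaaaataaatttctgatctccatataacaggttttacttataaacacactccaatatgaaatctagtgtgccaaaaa
Blvrb: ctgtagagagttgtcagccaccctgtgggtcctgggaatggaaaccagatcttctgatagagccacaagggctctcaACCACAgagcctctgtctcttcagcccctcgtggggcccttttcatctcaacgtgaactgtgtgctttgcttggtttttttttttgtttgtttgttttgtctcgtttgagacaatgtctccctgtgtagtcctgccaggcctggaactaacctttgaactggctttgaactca
Gm19585: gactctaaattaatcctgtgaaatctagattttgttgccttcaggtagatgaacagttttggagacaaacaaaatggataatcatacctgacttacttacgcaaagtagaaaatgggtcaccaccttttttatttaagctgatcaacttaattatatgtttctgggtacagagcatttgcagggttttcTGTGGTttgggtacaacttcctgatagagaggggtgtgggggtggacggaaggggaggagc
Hsd11b1: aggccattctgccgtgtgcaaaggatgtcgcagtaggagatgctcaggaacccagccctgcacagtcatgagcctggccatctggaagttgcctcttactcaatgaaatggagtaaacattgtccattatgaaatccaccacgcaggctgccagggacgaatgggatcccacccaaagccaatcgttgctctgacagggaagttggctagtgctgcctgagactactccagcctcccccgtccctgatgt
Bcl9: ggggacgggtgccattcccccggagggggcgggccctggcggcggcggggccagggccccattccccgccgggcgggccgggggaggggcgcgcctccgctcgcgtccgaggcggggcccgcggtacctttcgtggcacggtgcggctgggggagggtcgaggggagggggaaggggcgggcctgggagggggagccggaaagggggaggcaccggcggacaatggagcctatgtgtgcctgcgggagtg

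None of these 5 regions had a CBP peak or an H3K27ac peak in either progenitor list. The GC content of the windows ran from 40.0% at Gm36459 to 79.2% at Bcl9, against a median of 52.4% over all windows. The RUNX core was in 6 of the 14 windows and in 14.0% of all windows. The ETS core GGAA was in 14 of 14 and in 93.4% of all, and the E-box CANNTG in 9 of 14 and in 66.2% of all. TGANTCA, bound by AP-1, was in 1 of 14 (6.73% of all). TGACGTCA, bound by CREB factors, was in 0 of 14 (1.56% of all), CCCNNGGG, bound by EBF factors, in 0 of 14 (11.9% of all), and an IRF motif made of a pair of GAAA letters 2 bases apart in 0 of 14 (2.98% of all). All were searched on both strands, and these 14 windows are too few and too particular, being start sites, to stand for the other regions.

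A microRNA hairpin, Mir7086, lay inside a lone-lost region (chr9:45266292-45266823) assigned to Il10ra, the interleukin-10 receptor alpha chain. The region covered 532 and 206 bp in B cell lists 1 and 2. Its mature arms, from RefSeq, are printed with the seed (bases 2 to 8) in capitals and are shown because the hairpin lies within lost chromatin. The arms have different seeds.
mmu-miR-7086-5p: aAGAGGAGaaagguuugggca
mmu-miR-7086-3p: uCCGUUCUgauaucuccucag

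Among distal B cell regions, absence of the other marks went with loss of H3K27ac. Of the 2967 distal B cell regions with no H3K18ac or H3K56ac peak in any list, 2611 (88.0%) were lost, 294 had a peak in 1 LPD list and 62 (2.09%) were kept in both. Of the 10327 with another mark in at least 1 list, 2882 (27.9%) were lost and 5963 (57.7%) were kept. The background was a loss of 27% over all 23272 B cell regions and of 41.3% over distal ones. Since the rule used these lists, the shares are a description. They also rest on counting other marks in LPD: of the 4810 distal B cell regions with no other mark in the B cell lists alone, 3040 (63.2%) were lost and 1039 (21.6%) kept. With other marks counted in all 8 lists, LPD included, the split was present in every width class of B cell H3K27ac. The classes were cut at the quartiles of lone-lost width (293, 389 and 561 bp), and the widest has no upper bound. From the narrowest class to the widest, 91.4%, 89.8%, 87.0% and 84.1% of regions without another mark were lost, against 46.9%, 47.7%, 39.8% and 20.8% of regions with one. The split by width was not computed with other marks in the B cell lists alone. The opposite pattern, H3K27ac alone in both LPD lists and in neither B cell list, was met by 247 distal regions. A further 251 regions met the rule except that they lay within 1 kb of a gene end.

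Lone-lost regions were narrow. Their median H3K27ac length in B cells was 389 bp, with 391 bp in list 1 and 380 bp in list 2, quartiles of 293 and 561 bp and a range of 200 to 2733 bp. The median was 578 bp in lost regions with another mark and 1119 bp in kept regions with another mark. The length differed between the B cell lists by a median of 1.22-fold, and by more than 2-fold in 180 regions (6.89%). The same share was 3.40% of lost regions with another mark and 2.11% of kept regions with one. At the distance threshold, the 32 regions just inside it (more than 1 kb and up to 1.2 kb from a gene end) had a median of 383 bp, with 2 in the wild-type and 1 in the Crebbp-null progenitor list. The 32 just outside (0.8 to 1 kb) had a median of 402 bp, with 1 and 0.

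The widest regions were several times the median. Inside Etnk1, which encodes ethanolamine kinase, chr6:143169985-143172838 covered 2735 and 2730 bp in B cell lists 1 and 2. A region inside Sarnp, an RNA-binding export factor (chr10:128861268-128864110), covered 2809 and 2632 bp. Inside Sufu, a negative regulator of Hedgehog signalling, chr19:46453346-46455510 covered 2065 and 1860 bp. Others lay at Clec4g (chr8:3709601-3711811, 2165 and 1956 bp), Zfp318 (chr17:46387425-46389382, 1958 and 1892 bp), Chst3 (chr10:60187831-60189851, 2003 and 1756 bp) and Galnt1 (1889 and 1939 bp). Of the 8 widest, 1 had a progenitor peak: chr14:102906254-102908412, which has no gene end within 50 kb and covered 2003 and 2159 bp in B cells, had 587 bp covered by a peak in Crebbp-null and 928 bp in wild-type progenitors.

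The progenitor lists were not used by the rule, and few lone-lost regions had a peak in them. A Crebbp-null progenitor peak lay in 24 of 2611 (0.919%, 95% Wilson interval 0.618 to 1.36%) and a wild-type progenitor peak in 59 (2.26%, 1.76 to 2.90%). Over all distal B cell regions the shares were 18% in Crebbp-null and 26.8% in wild-type progenitors. Lost regions with another mark had a peak in 8.78% in Crebbp-null and 17.3% in wild-type progenitors, and kept regions with another mark in 33.2% and 45.8% in the same order. Among the 62 kept regions without another mark, 5 (8.06%) had a Crebbp-null and 9 (14.5%, 7.83 to 25.3%) a wild-type progenitor peak. With peaks of at least 500 bp only, the shares of lone-lost regions were 3.88% in Crebbp-null and 10.4% in wild-type progenitors, against 27.5% and 39.1% over all distal B cell regions in the same order. With 1 list per genotype no test could be made. The intervals cover counting over regions only, and neighbouring regions are not independent.

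The same order held within each width class, though widths are not matched in the widest class, which has no upper bound. That class held 653 lone-lost regions and 4754 kept regions with another mark. In wild-type progenitors the shares of lone-lost regions, from the narrowest class to the widest, were 1.52%, 1.98%, 2.47% and 3.06%. Lost regions with another mark had 11.8%, 11.8%, 13.2% and 22.0%, and kept regions with another mark 12.7%, 20.4%, 33.0% and 50.9%. In Crebbp-null progenitors the shares of lone-lost regions were 0.457%, 0.916%, 1.39% and 0.919%, against 5.41%, 6.11%, 7.77% and 10.8% of lost regions with another mark. The share in the widest lone-lost regions, 3.06% in wild-type progenitors, was below the 11.8% and 12.7% of the narrowest lost and kept regions with another mark, with no test.

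**Figure D1:**
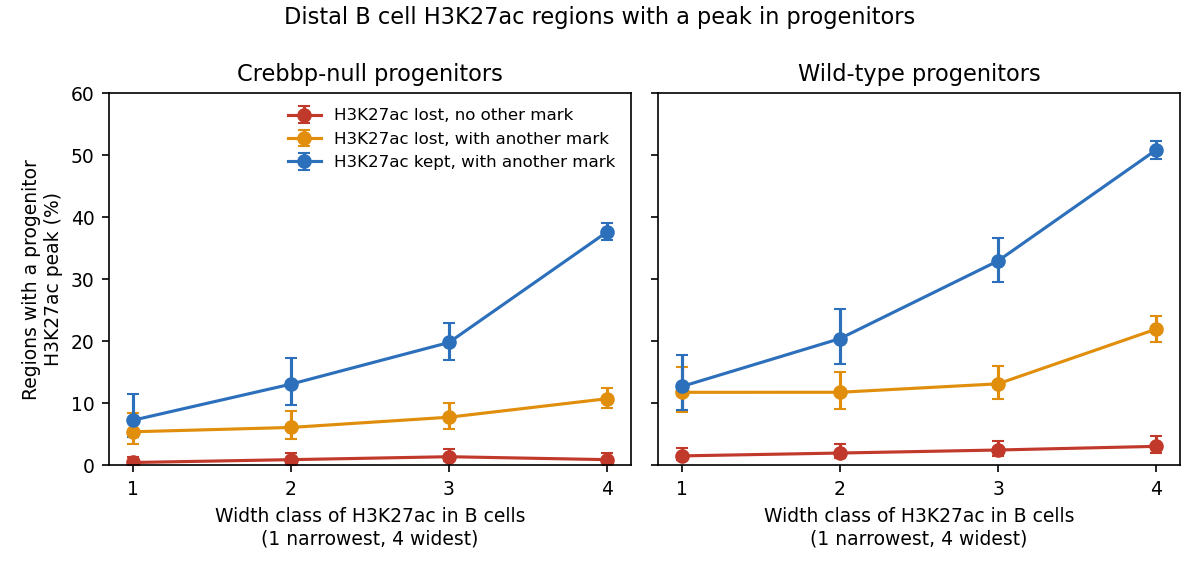
Percentage of regions (y axis) with an H3K27ac peak in Crebbp-null and in wild-type progenitors, by width class of B cell H3K27ac (x axis), for lone-lost regions and for lost and kept regions with another mark, bars being 95% Wilson intervals. Lone-lost regions stay at or under 3.06% in every class, while kept regions with another mark reach 50.9% in wild-type progenitors. The widest class has no upper bound.

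Of the 59 lone-lost regions with a wild-type progenitor peak, 37 (62.7%) had none in Crebbp-null progenitors and 22 had one in both. The background over distal B cell regions was 34.9%, and the value was 51.9% in lost and 29.3% in kept regions with another mark. The Crebbp-null progenitor list was the smaller, with 13125 peaks over 6.32 Mb against 17124 peaks over 9.43 Mb, and its part in these shares was not tested. Lengths given next are those of the lone-lost region that progenitor peaks covered, not of whole peaks. Regions covered in wild-type progenitors alone lay inside Jak1, the cytokine receptor kinase (405 bp covered), Ppp1r16b, a regulatory subunit of protein phosphatase 1 (200 bp), and Cmip (299 bp), and 2 neighbouring ones lay inside Dym. Regions covered in both lists included one with 871 bp in Crebbp-null and 940 bp in wild-type progenitors inside Clta, the clathrin light chain A gene. Bcor, which encodes a BCL6 corepressor, had 334 bp in Crebbp-null and 528 bp in wild-type progenitors. Cxxc5, a CXXC zinc finger gene, had 507 bp in Crebbp-null and 719 bp in wild-type progenitors. An intergenic region at chr7:132402092-132404066 had 769 bp in Crebbp-null and 689 bp in wild-type progenitors. The other 2 regions with a progenitor peak, at Camkk2 (236 bp covered) and near Snn (316 bp), had it in Crebbp-null progenitors alone.

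CBP peaks were rare in lone-lost regions. The B cell CBP list holds 1000 peaks over 0.305 Mb. It had a peak in 12 of 2611 lone-lost regions (0.460%, 95% Wilson interval 0.263 to 0.802%), against 3.16% of all distal B cell regions. Lost regions with another mark had 44 (1.53%) and kept regions with another mark 321 (5.38%). Of the 62 kept regions without another mark 0 had one, which allows a share of up to 4.84% by a limit of 3 counts and of up to 5.83% by the Wilson interval. These 12 regions were touched by 11 CBP peaks, since 1 peak of 330 bp spanned 2 adjacent regions inside Zfp608 with 93 and 24 bp in them. Inside Atrnl1 (chr19:57648456-57649071) a CBP peak of 462 bp lay wholly within the lone-lost region. The others reached in from the side: 29 bp of a 285 bp peak lay in the region inside Lrch1, 67 bp of a 213 bp peak in that inside Slc38a9, and 20 bp of a 262 bp peak in that near Clic4. Without B cell H3K27ac list 2 the share was 0.290%, and with peaks of at least 500 bp only it was 0.986%, against 5.04% over all distal B cell regions. By width class of B cell H3K27ac, narrowest to widest, the CBP share was 0.305%, 0.611%, 0.618% and 0.306% of lone-lost regions. Over all distal B cell regions it was 0.216%, 0.947%, 1.201% and 4.73% in the same order. The lone-lost share was thus not the lower in the narrowest class, and the gap was largest in the widest. Widths are not matched in the widest class, which has no upper bound. These lone-lost shares rest on 2 to 4 regions per class, with no test. The CBP list is short, so absence from it does not show that CBP was absent.

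Many lone-lost regions lay near another one, a spacing that depends on how peaks are joined. Of 2611, 1776 (68.0%) lay inside a protein-coding gene, close to the 67.5% of all merged regions and the 62.5% of all distal B cell regions, while it was 52.2% of lost and 64.2% of kept regions with another mark. The median distance to a gene end was 14.8 kb, and 15.9 kb over all distal B cell regions. The nearest other lone-lost region was a median of 9.16 kb away, and 760 (29.1%) had one within 1 kb. The nearest lone-lost region was a median of 64.7 kb from lost regions with another mark and 113.3 kb from kept ones. These are distances between sets, and the spacing of lost regions with another mark among themselves was not measured. The nearest region with H3K27ac in all 4 lists lay 5.07 kb from lone-lost regions, and 1633 (62.5%) had one within 10 kb, close to the 4.81 kb of kept regions with another mark. Some other merged region lay within 500 bp of 1857 (71.1%). With gaps of up to 500 bp merged, 1148 regions met the rule, and their spacing was not computed. Joined over gaps of up to 12 kb, 1384 regions (53.0%) fell into 503 stretches of 2 or more, and 457 into 87 stretches of 4 or more, while 1227 (47.0%) were alone. Stretches were not counted for the other sets.

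The acetylation around the regions differed by mark. The rule did not score these flanks, but they were measured in the same lists that it used. Another merged region lay within 500 bp of 1857 lone-lost regions (71.1%). The flank values, and the test on them, are thus not independent of the rule. The part of the choice by H3K27ac in these values was not tested. In the 10 kb on each side, with the regions themselves left out, H3K27ac covered 1.86 and 1.24 kb per region in LPD lists 1 and 2, against 3.40 and 3.35 kb in B cell lists 1 and 2. The LPD values were both lower, and the groups did not overlap, with means of 1.55 ± 0.440 kb in LPD and 3.37 ± 0.0365 kb in B cells (SD, n = 2 lists each) and a log2 ratio of -1.12. H3K18ac went the other way, with 1.90 and 1.35 kb in LPD and 1.19 and 1.24 kb in B cells, a log2 ratio of 0.42. H3K56ac covered 0.970 and 1.06 kb in LPD and 0.858 and 0.763 kb in B cells, a log2 ratio of 0.32. For both marks, too, each LPD list was above each B cell list. An exact two-sided permutation test gave p = 0.333 for each mark, the smallest that 2 lists against 2 allow, so none could pass a threshold. The H3K18ac difference, 0.414 kb with all lists, was 0.178 kb without LPD H3K18ac list 1 and 0.707 kb without list 2. With lists of equal length it was 0.233 kb, and the H3K56ac difference, 0.203 kb with the lists as deposited, was 0.0808 kb.

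As log2 ratios, these flank values were closest to those of lost regions with another mark, whose ratios were -1.11, 0.41 and 0.33 for H3K27ac, H3K18ac and H3K56ac. In length they were not: H3K27ac there covered 0.838 kb in LPD and 1.81 kb in B cells, a difference of -0.971 kb against -1.83 kb beside lone-lost regions. In kept regions with another mark the ratios were -0.41, 1.37 and 1.14. Around the 62 kept regions without another mark they were -0.11, 1.67 and 1.62, and the H3K27ac lists overlapped there. Over the whole lists they were -0.27, 0.90 and 0.82, so for H3K18ac and H3K56ac the ratio beside lone-lost regions was smaller than that of the lists. Most regions had LPD acetylation nearby, whether or not B cells had it there: in a flank, 1633 lone-lost regions (62.5%) had H3K27ac in both LPD lists, 1738 (66.6%) H3K18ac and 1503 (57.6%) H3K56ac. No LPD peak of any mark lay in either flank of 590 (22.6%), and 256 (9.80%) had no peak of any of the 12 lists there. These counts were not made for the other sets. Per list, LPD lists 1 and 2 had H3K27ac in a flank of 71.2% and 63.0% of lone-lost regions. The shares were 50.3% and 42.4% of lost and 60.1% and 43.6% of kept regions with another mark. They were 96.8% and 91.9% of kept regions without another mark. For H3K18ac and H3K56ac lone-lost regions also lay above both sets with another mark and below this last set. Each set's own regions were left out.

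**Figure D2:**
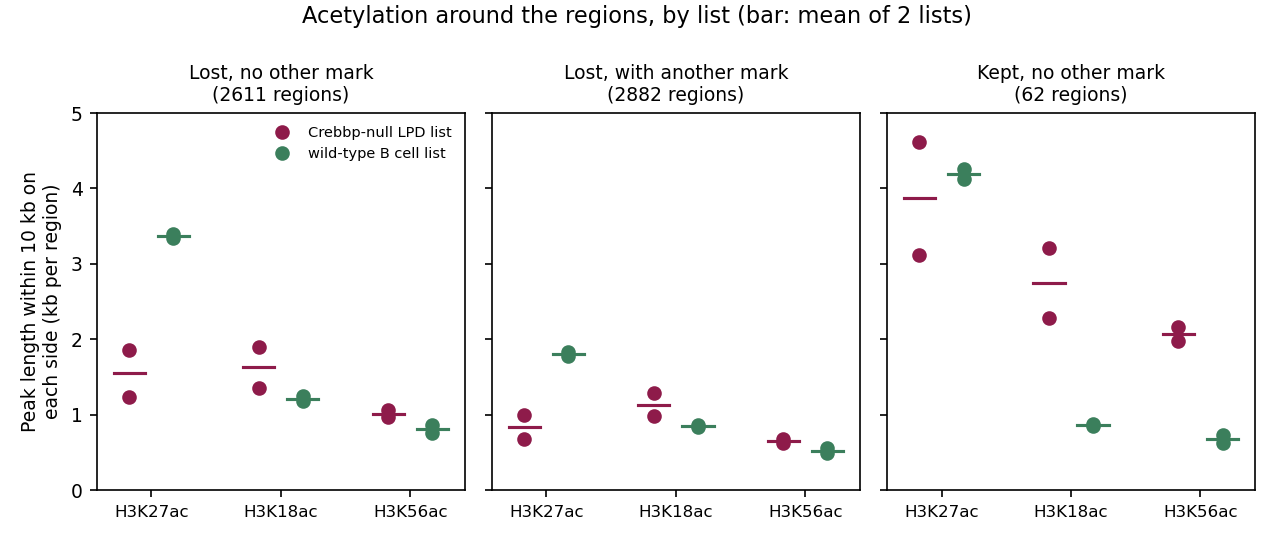
Peak length in kb per region (y axis) within 10 kb on each side, by mark (x axis), for lone-lost regions, lost regions with another mark and kept regions without another mark, each point being a list and each bar the mean of 2 lists. Around lone-lost regions both Crebbp-null LPD lists lie below the wild-type B cell lists for H3K27ac (1.24 to 1.86 kb against 3.35 to 3.40 kb) and above them for the other 2 marks.

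By gene, most had a single lone-lost region and a few had many. Regions were assigned to each protein-coding gene they overlapped within 1 kb, and otherwise to the nearest within 50 kb. Of 4271 genes with a distal B cell region, 1313 (30.7%) had a lone-lost region: 795 had 1, 435 had 2 to 4, and 83 had 5 or more. Of the regions, 164 had no gene in reach. Crebbp itself had no distal B cell region and so no lone-lost region, and Ep300, the gene for p300, had 0 lone-lost among 3.

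Cyth1, which encodes cytohesin-1, an exchange factor for ARF GTPases, led with 16 lone-lost of 29 distal B cell regions (chr11:118164170-118248616). The lone-lost regions covered 8.05 and 6.80 kb in B cell lists 1 and 2. In all other regions of the gene H3K27ac covered 16.1 ± 4.42 kb in LPD against 51.3 ± 0.608 kb in B cells (SD, n = 2 lists each, as for the genes below). Each LPD list was below each B cell list. Cyth1 and the genes below were chosen by their number of lone-lost regions, so these values are descriptions. Their other regions include further lost ones, 6 at Cyth1, which have no LPD H3K27ac by definition. Part of each gap was thus fixed by that definition. Tec, a tyrosine kinase that gives its name to a family with roles in antigen receptor signalling, had 14 of 25, and its other regions covered 5.53 ± 3.39 kb in LPD against 20.5 ± 0.00495 kb in B cells. Ets1, a transcription factor of the ETS family, had 14 of 41, with 35.3 ± 9.72 kb in LPD against 67.3 ± 0.380 kb in B cells. Lrch1, a leucine-rich repeat protein gene, had 13 of 26, with 8.61 ± 1.67 kb in LPD against 19.8 ± 1.08 kb. Ptk2b, which encodes the kinase PYK2, had 11 of 22, and its other regions covered 3.47 ± 1.65 kb in LPD against 28.1 ± 0.177 kb. Dgkd, a diacylglycerol kinase, had the highest share of these 12 genes, 11 of 13, with 3.72 ± 0.625 kb in LPD against 13.2 ± 0.809 kb. Dipk1a had 11 of 19 and Ankrd11, a chromatin regulator, 11 of 20.

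Of the other 4 of the 12 genes with the most lone-lost regions, Bank1, Ebf1 and Bach2 were on the B cell identity list and Foxp1 on the lymphoma list. Counts per gene are to be read against its number of distal regions, 19.6% of which were lone-lost over all genes. Bank1, a scaffold of B cell receptor signalling, had 12 of 24, and its other regions covered 11.3 ± 5.60 kb in LPD against 17.9 ± 1.42 kb in B cells. Ebf1, a B lineage transcription factor, had 12 of 27, with 24.3 ± 7.17 kb in LPD against 45.4 ± 1.32 kb. Bach2, a repressor of plasma cell fate, had 11 of 37, with 28.3 ± 9.99 kb in LPD against 48.5 ± 0.737 kb. Foxp1, a forkhead transcription factor, had 13 of 57. Of its regions 30 were kept, 16 were gained, and its other regions covered 88.7 ± 24.6 kb in LPD against 103.7 ± 2.33 kb in B cells, where the LPD lists (106.1 and 71.3 kb) spanned the B cell lists (105.4 and 102.1 kb). At Bach2 the other regions had 39.5 ± 10.1 kb of H3K18ac in LPD against 13.4 ± 0.926 kb in B cells.

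**Figure D3:**
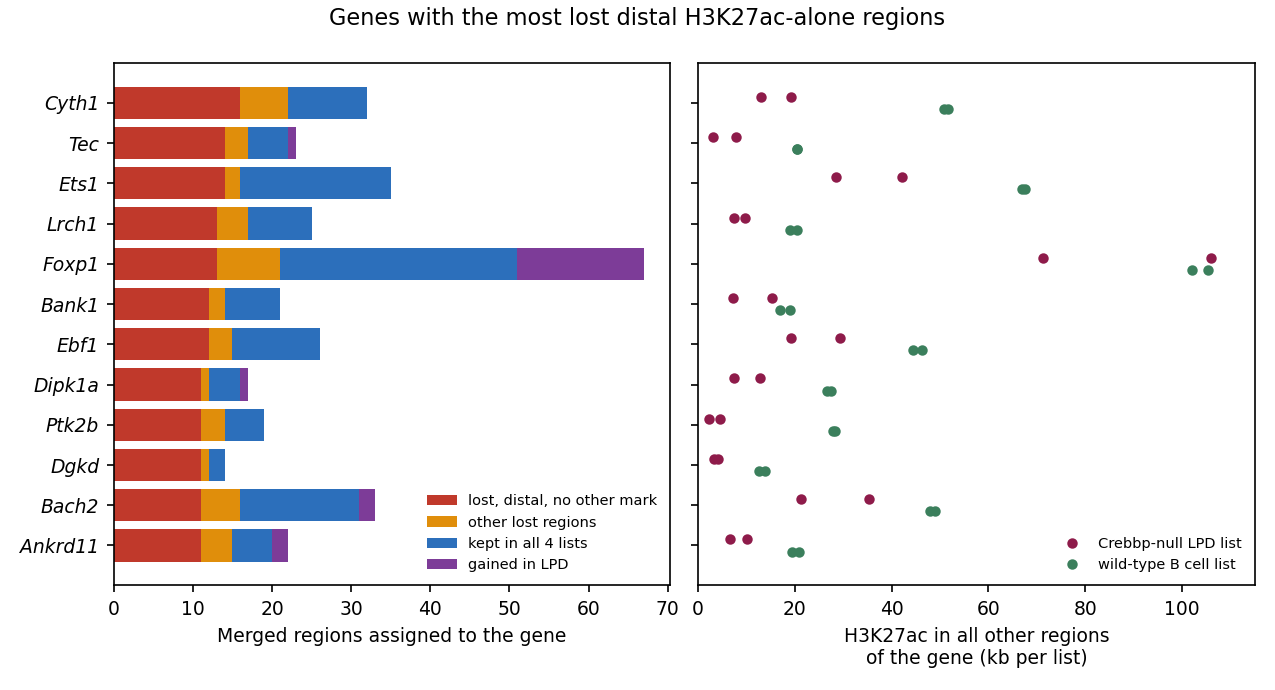
Number of merged regions assigned to the gene (left, x axis) that were lone-lost, lost otherwise, kept in all 4 H3K27ac lists or gained in LPD (regions in any other state are left out), and H3K27ac length in kb in all other regions of the gene (right, x axis) by list, for the 12 genes with the most lone-lost regions (y axis). In the right panel the Crebbp-null LPD lists lie below the wild-type B cell lists for all but Foxp1. The genes were chosen by their number of lone-lost regions, and the right panel includes regions lost otherwise.

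The 4 stretches described here each kept some H3K27ac in LPD, and each LPD list was below each B cell list. Stretches were chosen by their number of lone-lost regions, so these values are descriptions. The lengths include the lone-lost regions, which have no LPD H3K27ac by the rule, so part of each gap was fixed by the choice. In B cell lists 1 and 2 that part was 5.08 and 5.74 kb at Dgkd and 4.75 and 5.93 kb at Fh1 and Kmo. It was 5.24 and 5.09 kb at Tec, and 4.72 and 4.665 kb at Lrch1. At Dgkd (chr1:87859925-87876897, 16.97 kb, 11 regions) H3K27ac covered 0.278 and 0.222 kb in LPD against 8.80 and 10.04 kb in B cells. At Fh1 and Kmo (11 regions over 31.3 kb), which encode fumarate hydratase and kynurenine 3-monooxygenase, it covered 1.81 and 1.06 kb in LPD against 13.7 and 14.5 kb. The 37.7 kb Tec stretch (10 regions) had 3.07 and 1.74 kb in LPD against 17.1 and 17.5 kb. Lrch1 (11 regions over 38.3 kb) had 5.81 and 4.68 kb in LPD against 13.4 and 12.6 kb, with H3K18ac at 6.02 and 4.25 kb in LPD and 0.866 and 1.91 kb in B cells.

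Gene lists differed in how much of their distal H3K27ac was lone-lost. These lists were chosen with earlier results known and are set beside 19.6% for all genes, with no test. For B cell receptor signalling, 14 of 18 genes with a distal B cell region had one, and 62 of 190 regions (32.6%) were lone-lost. For B cell identity it was 10 of 17 genes and 52 of 153 regions (34.0%). In total these 2 lists lost H3K27ac in 44.2% and 43.8% of their distal regions, near the 41.3% of all genes, so their share lost in any way stood close to the background. The B cell receptor list was led by Plcg2, the phospholipase of the receptor cascade (8 of 12), Sh3bp2, an adaptor (8 of 12), and the kinase Lyn (8 of 11). Most of the B cell identity count lay at Bank1 (12), Ebf1 (12) and Bach2 (11). Regions of the same gene are not independent. The list shares were not computed without these leading genes, nor with regions merged over gaps of up to 500 bp. At Plcg2, also chosen by its number of lone-lost regions, the other regions covered 0.969 ± 0.125 kb of H3K27ac in LPD against 7.98 ± 0.202 kb in B cells. Among homing receptors, S1pr1, which guides exit from lymphoid tissue, had 7 of 15 and Ccr7, a chemokine receptor, 4 of 8. NF-kB, CD40 and BAFF genes had 6 of 13 genes and 13 of 47 regions (27.7%), led by Traf5 (4), Nfkb1 (3) and Ikbkb (2).

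In most other lists the share was near or under the value for all genes. Early B cell development had 5 of 8 genes but 8 of 63 regions (12.7%), with Flt3, Ikzf3 and Ikzf1 at 2 each, and Ikzf1 had 14 kept and 9 gained regions. Without LPD H3K27ac list 1 the early B cell share was 23.1%, against 21.4% for all genes. Germinal centre genes had 3 of 9 genes and 9 of 57 regions (15.8%): Irf8 (5), Mef2c (3) and Gna13 (1). MHC class II presentation had 4 of 11 genes and 8 of 43 regions (18.6%), with Cd74 and Ciita at 3 each and Ctss at 1. Lymphoma oncogenes and suppressors had 6 of 20 genes and 28 of 134 regions (20.9%), led by Foxp1, Jak1 (10) and Btg1 (2). Genes of cAMP signalling and immediate early response lost 62.7% of their distal regions, yet 12 of 75 (16.0%) were lone-lost, at Pde4b (5), Nr4a1 (3), Fos (2) and others. That share was 25.3%, against 22.9% for all genes, where other marks had to be absent from the B cell lists only. Acetyltransferase and deacetylase genes had 2 of 11 genes and 3 of 35 regions (8.57%), Hdac9 with 2 and Hdac1 with 1. Plasma cell genes had 1 of 6, at Prdm1, with 1 of 17 regions. Stem and progenitor genes had 2 of 4 genes (Slamf1 and Flt3) and 5 of 19 regions, and myeloid genes 2 of 5 (Itgam and Cebpb) and 2 of 10. T and NK, proliferation and housekeeping lists had 0 of 2, 0 of 3 and 0 of 1 genes, and erythroid genes had no distal B cell region.

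Lone-lost regions made up a smaller share on 3 chromosomes, which were singled out after their values were seen. They were 10.02% of distal B cell regions on chromosome 15, 10.7% on chromosome 12 and 13.8% on chromosome 17, and 18.01 to 24.1% on the other chromosomes. On the same 3 chromosomes, distal regions without another mark were 11.9 to 15.5% of distal B cell regions, against 20.2 to 31.1% elsewhere, and kept regions 55.7 to 62.2% against 35.4 to 49.0%. List length moved with this for all marks on chromosomes 15 and 17, measured as the log2 ratio of LPD list over the B cell mean. On chromosome 15 it was 0.37 and 0.03 for H3K27ac, 1.64 and 1.41 for H3K18ac, and 1.46 and 1.54 for H3K56ac. On chromosome 17 it was 0.26 and -0.11, 1.47 and 1.18, and 1.34 and 1.40 for these marks. The highest values on the chromosomes other than 12, 15 and 17 were 0.05 and -0.49 for H3K27ac, 1.21 and 0.74 for H3K18ac, and 0.95 and 1.07 for H3K56ac. On chromosome 12 only H3K27ac lay above these, at 0.11 and -0.40. There H3K18ac (1.16 and 0.71) and H3K56ac (0.77 and 0.87) did not. The part of list length in the difference was not tested. Where other marks had to be absent from the B cell lists only, the shares were 12.6 to 18.1% on these chromosomes and 21.1 to 27.2% on the others. Without B cell H3K27ac list 1 they were 17.8 to 21.9% and 24.5 to 33.7%, and without list 2 they were 18.7 to 22.9% and 25.5 to 37.7%.

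**Figure D4:**
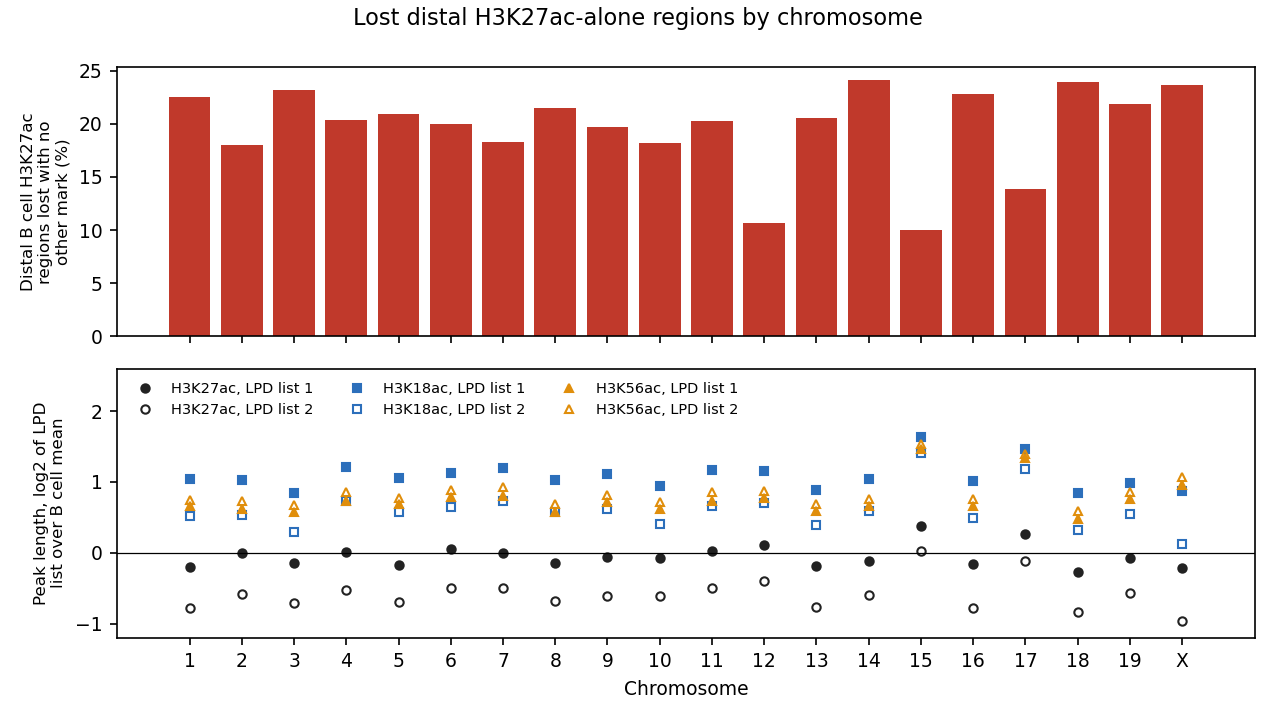
Lone-lost regions as a percentage of distal B cell regions (upper panel, y axis) and the log2 ratio of peak length in each Crebbp-null LPD list over the wild-type B cell mean (lower panel, y axis) by chromosome (x axis). Chromosomes 12, 15 and 17 lie at 10.02 to 13.8%, below the 18.01 to 24.1% of the others.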

How the data were processed

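Histone acetylation and CBP were profiled by ChIP-seq, and 15 peak lists of a series of 30 samples were used; the other 15 samples were not analysed here. The deposited lists hold peak positions in mm10 coordinates, with no score, signal or read depth, so depth is unknown. Per the submitters' processing notes, Bowtie2 2.1.0, Picard, MACS2 2.0.10 and bedtools were used; settings and thresholds are not given in the sources used here.

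Peaks of the 12 LPD and B cell acetylation lists were merged where they overlapped or touched, and 1 bp of overlap counted as a peak in a region. Gene spans came from RefSeq GRCm38.p6, whose start table lacks chromosome 18. Lengths covered were computed with Python 3.11.15, NumPy 2.4.6 and pandas 2.3.3, and the exact permutation test with SciPy 1.17.1. The scripts were checked on simulated data. Shares have 95% Wilson intervals. Alternatives covered merging, overlap, gene distance, peak width, list length and each replicate left out.

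The members and gene lists were chosen with earlier results of these data known. Named were the 12 genes with the most members, the 8 widest members, the 5 stretches with the most members, the 6 widest members with a CBP peak, the 5 widest members with a progenitor peak in wild type alone and in both lists, 3 genes per list, Crebbp and Ep300. The 2 members with a peak in Crebbp-null progenitors alone, and chromosomes 12, 15 and 17, were named after their values were seen. Results for 1 gene that this rule names are not reported here.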

Additional observations from a re-analysis of the deposited data

How the results depend on the processing

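The 3 flank differences kept their sign under 24 alternatives. Among these, the replicate block and the overlap of at least 200 bp could not change them. The block leaves the difference of group means as it is, and no peak is shorter than 200 bp. The other 6 results, counts, shares and a median with no sign, were recomputed under 21. The number of lone-lost regions, 2611 as reported, was 1148 with regions merged over gaps of up to 500 bp, 1500 with no other mark within 1 kb and 1725 with peaks of at least 500 bp only. Leaving out each replicate gave 2613 to 4834 regions, with 4631 without B cell H3K27ac replicate 1 and 4834 without replicate 2, by construction since 1 list then sufficed. The share with a wild-type progenitor peak was 10.4% with peaks of at least 500 bp, 2.97% with lists of equal length and, in an alternative added after the data were seen, 3.09% with other marks absent from B cell lists only; leaving out replicates gave 2.03 to 2.81%. For Crebbp-null progenitors it was 3.88% with peaks of at least 500 bp and 0.869 to 1.198% over replicates left out. The CBP share was 0.986% with peaks of at least 500 bp and 0.290 to 0.529% over replicates left out. The flank differences in kb, LPD minus B cells, ranged over replicates left out from -1.99 to -1.50 for H3K27ac, 0.178 to 0.707 for H3K18ac and 0.150 to 0.269 for H3K56ac. With lists of equal length they were -1.69, 0.233 and 0.0808 kb, with 5 kb on each side -1.15, 0.154 and 0.0628 kb, with 25 kb -3.03, 1.09 and 0.614 kb, and with gaps of up to 500 bp merged -1.16, 0.310 and 0.172 kb. With the replicate block by title number they were -1.83, 0.414 and 0.203 kb, as without it, and the titles do not say what a number shares.

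The share of distal B cell regions that were lone-lost at early B cell development genes depended on 1 list, with 23.1% without LPD H3K27ac replicate 1 against 12.7% as reported. For B cell receptor genes it was 33.2 to 45.3% and for B cell identity genes 33.8 to 47.2% over the H3K27ac lists left out, above the all-gene share of each setting (19.8 to 28.5%). Chromosomes 12, 15 and 17 stayed below the lowest other chromosome in all of these settings. Precision is limited by lists that hold positions only, by 2 lists per group and by 1 list per progenitor genotype.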
